A study of Mus musculus with 12 samples.

Results

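The genes described here are 10 genes whose products build basement membranes: Col4a1, Col4a2, Col15a1, Col18a1, Lama4, Lamb1, Lamc1, Nid1, Nid2 and Hspg2. They were listed by name, without a threshold on their values, and are 10 of the 33246 genes in the deposited count table. All 10 passed the filter on low counts, as did 14542 genes in total. Primary mouse ear fibroblasts, isolated from C57BL/6 mice 1 month old and used at passage 2, were seeded at 500000 cells per sample and kept for 48 h on alginate gels that carried RGD peptide, an integrin ligand. The question of the comparison was whether the viscoelasticity of a gel changes gene expression, and whether it does so alike on soft and on stiff gels. Elastic gels were crosslinked covalently and showed little stress relaxation, and viscoelastic gels were crosslinked ionically and relaxed slowly. Each kind was made with a stiffness of 2 kPa and of 20 kPa, which gave 4 groups of 3 biological replicates, and polyA RNA was sequenced. The kind of crosslinker changed together with stress relaxation, so their effects cannot be told apart. The concentration of crosslinker changed together with stiffness, so these effects cannot be told apart either.

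A basement membrane is a thin sheet of extracellular matrix that lies under epithelia and around blood vessels, muscle fibres, fat cells and nerves. Its sheet is built from a network of laminin trimers (an α, a β and a γ chain) and a network of type IV collagen, and nidogens and the heparan sulfate proteoglycan perlecan bind to both. Collagens XV and XVIII sit at its border with the interstitial matrix, and fibroblasts, which lie in that interstitial matrix, are known to make several of these proteins themselves.

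Col4a1 and Col4a2, which encode the α1 and α2 chains of the most common type IV collagen, lie head to head on chromosome 8. In the mouse build GRCm38, Col4a1 spans chr8:11198423-11312826 on the minus strand and Col4a2 spans chr8:11312805-11449287 on the plus strand. Their first exons overlap by 22 bases at chr8:11312805-11312826, which are shown because the 2 genes fell together on viscoelastic gels. On the plus strand these bases, all in capitals because both annotated transcripts share them, read:
Col4a1 and Col4a2 shared start: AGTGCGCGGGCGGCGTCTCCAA

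Of the 10 genes, 7 had an entry in the RefSeq promoter table of GRCm38 (Lama4, Lamc1 and Nid2 were not matched). The letters GGGCGG, read on both strands and known as the core of the GC box that Sp1 family factors bind, occurred in the 250 bases before the start of 5 of these 7 genes. They occurred in 32.7% of the 32851 upstream windows of the same length in the table. That share counts single windows, whereas the 7 genes, which had 8 windows, were counted by gene. Col18a1 was counted through 1 window with 3 matches, while its other window held 0. Hspg2, Nid1 and Lamb1 are shown because Hspg2 fell on viscoelastic gels at both stiffnesses, Nid1 was called at 20 kPa and Lamb1 was called at neither. The bases end where the RefSeq or the GENCODE transcript begins, whichever comes first, run along the plus strand, and have GGGCGG or its complement CCGCCC in capitals. They come from chr4:137468553-137468768 for Hspg2 (5 matches in 216 bases), chr13:13437352-13437550 for Nid1 (1 match in 199 bases) and chr12:31265043-31265233 for Lamb1 (2 matches in 191 bases):
Hspg2 upstream: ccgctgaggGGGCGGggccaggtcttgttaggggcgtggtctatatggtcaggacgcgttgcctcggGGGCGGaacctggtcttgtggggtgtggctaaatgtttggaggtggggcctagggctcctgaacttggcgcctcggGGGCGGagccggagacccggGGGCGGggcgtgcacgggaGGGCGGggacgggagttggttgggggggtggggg
Nid1 upstream: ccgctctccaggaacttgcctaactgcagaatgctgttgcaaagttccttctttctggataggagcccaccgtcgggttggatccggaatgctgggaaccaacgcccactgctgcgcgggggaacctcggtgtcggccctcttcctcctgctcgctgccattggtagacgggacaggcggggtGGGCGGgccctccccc
Lamb1 upstream: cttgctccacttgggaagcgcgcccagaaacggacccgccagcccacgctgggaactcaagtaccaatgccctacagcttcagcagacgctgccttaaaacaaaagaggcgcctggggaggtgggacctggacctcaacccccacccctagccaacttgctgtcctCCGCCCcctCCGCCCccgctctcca

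A match of letters is a description of the sequence and not a bound site. Both Hspg2, which fell, and Lamb1, which was not called, held it.

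Samples held 36626221 to 43612804 counts on genes, and edgeR's common biological coefficient of variation, the replicate spread that counting does not account for, was 7.5%. The 8 fibroblast markers, among them Col1a1, the chain of type I collagen, summed to 17335 to 20631 CPM (counts scaled to a common library size) in a sample. The 7 endothelial markers summed to at most 3.69 CPM in a sample, with Cldn5 listed at 0 in all samples of 2 groups, and the 6 keratinocyte markers summed to 14.1 to 23.3 CPM. The sums were 49.2 to 86.4 CPM for 5 adipocyte markers and 5.17 to 9.01 CPM for 5 leukocyte markers. The 5 chondrocyte markers (Col2a1, Acan, Col9a1, Sox9 and Matn3) were not low: they summed to 4416 to 5658 CPM on 2-kPa elastic gels, 4020.0 to 4109.7 on 20-kPa elastic gels, 4278 to 5421 on 2-kPa viscoelastic gels and 4141 to 5491 on 20-kPa viscoelastic gels. The label names only fibroblasts, so these libraries also held high levels of cartilage genes. In bulk RNA, fewer cells of a type and less RNA per cell cannot be told apart.

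CPM are scaled here by edgeR's TMM factors, and levels of different genes are set against each other only as CPM per kilobase of exon. On that scale, as means over the 12 samples, Col4a2 (136 CPM per kb), Col4a1 (130.2), Nid1 (123) and Hspg2 (99.7) were the highest of the 10, at ranks 203 to 312 of 13805 tested genes with a known length. Below them came Nid2 (47.8), Lamb1 (36.7), Lama4 (27.1) and Lamc1 (26.3). Col18a1 (8.43) and Col15a1 (1.27) were lowest, with ranks of 4581 and 10297. Together the 10 genes took 0.558% to 0.635% of all counts on 2-kPa elastic gels and 0.547% to 0.632% on 20-kPa elastic gels. On viscoelastic gels the share was 0.479% to 0.519% at 2 kPa and 0.437% to 0.477% at 20 kPa, so the range on viscoelastic gels lay below that on elastic gels.

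**Figure D1:**
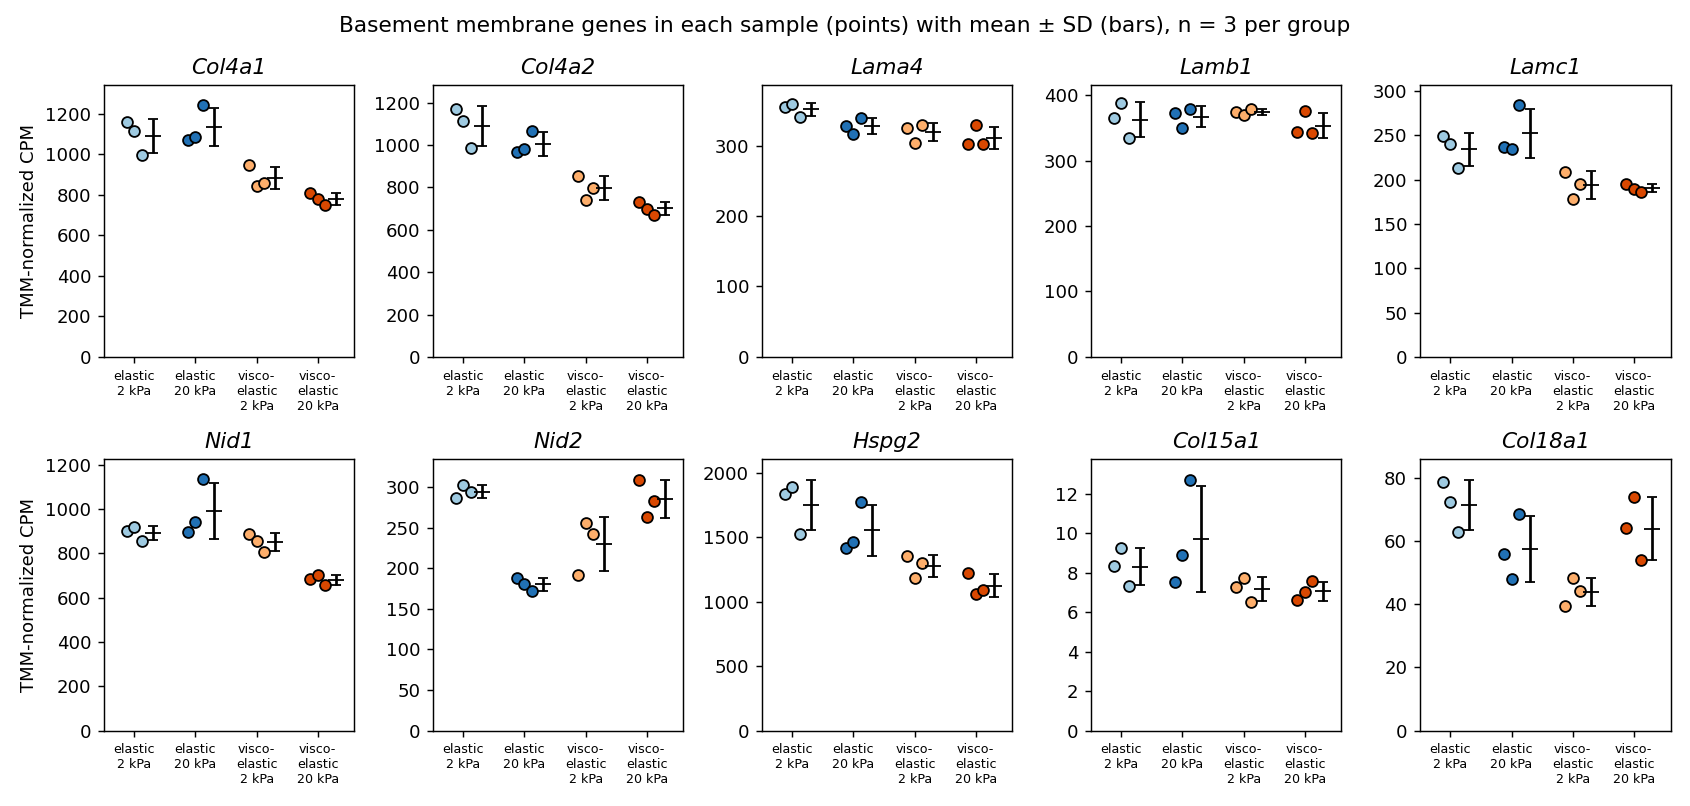
TMM-normalized CPM of the 10 genes in each of 12 samples (points) by gel group, with the mean ± SD (bars, n = 3) and every axis starting at 0. Col4a1, Col4a2, Lamc1 and Hspg2 sit lower in both viscoelastic groups, Lamb1 stays between 335 and 388 CPM, and Nid2 is lowest on 20-kPa elastic gels.

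Of the 10 genes, 6 were lower on viscoelastic than on elastic gels at each stiffness, and 4 of them, the type IV collagen chains Col4a1 and Col4a2, the laminin chain Lamc1 and the perlecan gene Hspg2, were lower at both. At 2 kPa, edgeR's quasi-likelihood test (Benjamini-Hochberg adjusted p under 0.05 over all tested genes, as for every call here) called 6 lower and 0 higher, where 11.1% of all tested genes were lower and 8.77% higher. The count of 0 higher was also 0 at an unadjusted p under 0.05 and with DESeq2. In a list of 10 genes, 0 is near the share of 8.77%. At 20 kPa edgeR called 6 lower and 1, Nid2, higher, where 16.1% of all tested genes were lower and 17.4% higher. The median log2 fold change of the 10 genes was -0.29 at 2 kPa, where that of all tested genes was 0, and -0.43 at 20 kPa, where that of all tested genes was 0.02. Averaged over both stiffnesses, 7 were lower and 0 higher, against 20.4% lower and 19.6% higher among all tested genes, and DESeq2 gave 8 lower and 0 higher. At an unadjusted p under 0.05 for that average, 8 were lower and 1 was higher, where 48.5% of all tested genes passed in either direction. The samples of the 2 gel types did not overlap for 7 of the 10 genes at 2 kPa and for 6 at 20 kPa, where 36.3% and 49.9% of all tested genes did not overlap.

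The exons of each of the 10 genes sum to a long length, 5.17 kb for Nid2 to 14.31 kb for Hspg2, where the median of tested genes was 4.38 kb. With the trend of counts on this summed exon length removed in each sample, 4 were lower at 2 kPa, 5 at 20 kPa and 5 on average. With that, GC content and a replicate block corrected together, 3 were lower at 2 kPa, 5 at 20 kPa and 5 on average. The shares of all tested genes called that are given in this report come from the edgeR fit without such corrections. They were not computed for the corrected fits or for DESeq2, so the counts under those have no such comparison.

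**Figure D2:**
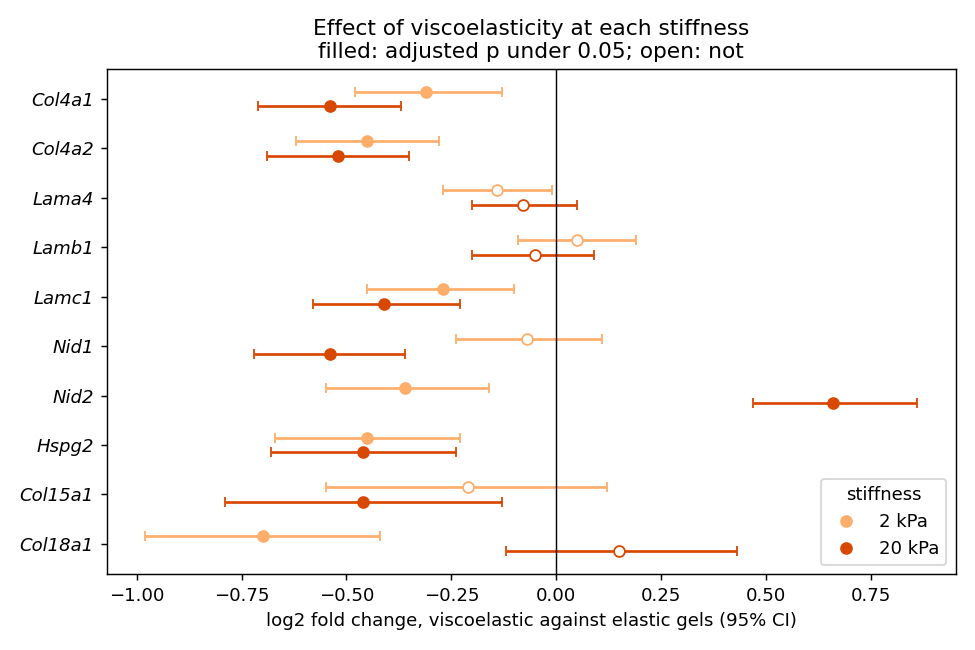
Log2 fold change between viscoelastic and elastic gels for each gene at 2 kPa (light) and at 20 kPa (dark), with 95% confidence intervals from the edgeR fit. Filled points have an adjusted p under 0.05, and Nid2 is the gene called in opposite directions, -0.36 at 2 kPa and 0.66 at 20 kPa.

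Col4a1 was read at 1159, 1116 and 999 CPM on 2-kPa elastic gels and at 946, 845 and 858 on 2-kPa viscoelastic gels. Every 2-kPa viscoelastic sample thus lay below every 2-kPa elastic one. At 20 kPa it had 1072, 1086 and 1242 CPM on elastic and 809.8, 781 and 749.6 CPM on viscoelastic gels, again without overlap. The log2 fold change was -0.31 ± 0.08 (SE; adjusted p = 0.0151, edgeR) at 2 kPa and -0.54 ± 0.08 (adjusted p = 0.000265, edgeR) at 20 kPa. The call at 2 kPa was lost with the length correction (adjusted p = 0.0503), with the GC correction (0.0554), with both and the replicate block (0.198), and when replicate 1 or 2 of the elastic gels (0.0794 and 0.0557) or replicate 3 of the viscoelastic gels (0.0567) was left out of the edgeR fit. The call at 20 kPa held under each of these.

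Col4a2, its partner in the same collagen trimer, was read at 1171, 1113 and 985 CPM on 2-kPa elastic gels and at 855, 740.4 and 797 on 2-kPa viscoelastic gels. On 20-kPa elastic gels it had 964.5, 982 and 1068 CPM, and on 20-kPa viscoelastic gels 732, 699.8 and 671. As with Col4a1, elastic and viscoelastic samples did not overlap at either stiffness. The log2 fold change was -0.45 ± 0.08 at 2 kPa (adjusted p = 0.00152, edgeR) and -0.52 ± 0.08 at 20 kPa (adjusted p = 0.000324, edgeR), and both calls held under all alternatives tried, each sample left out in turn among them.

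The counts of Col4a2 relative to Col4a1 within a sample ranged from 0.986 to 1.01 on 2-kPa elastic gels and from 0.86 to 0.929 in the other 3 groups. The 2-kPa elastic gels thus lay above the other groups without overlap. Over both gel types the log2 ratio differed by -0.088 between 20 and 2 kPa (-0.17 on elastic and -0.01 on viscoelastic gels; exact permutation test within gel types, two-sided, p = 0.035, adjusted over 8 ratio tests 0.14). It fell short of the threshold after adjustment, except without replicate 2 of the 2-kPa viscoelastic gels (exact permutation, adjusted p = 0.02). The difference between viscoelastic and elastic gels was -0.064 (exact permutation p = 0.06, adjusted 0.16).

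The 3 laminin chains did not move alike. Lamc1, the γ1 chain of most laminins, was read at 249.5, 239.7 and 214 CPM on 2-kPa elastic gels and at 208.5, 178 and 196 on 2-kPa viscoelastic gels. On 20-kPa elastic gels it had 237, 235 and 284 CPM, and on 20-kPa viscoelastic gels 195, 189 and 186. Every viscoelastic sample lay below every elastic sample of the same stiffness. The log2 fold change was -0.27 ± 0.08 (adjusted p = 0.0313, edgeR) at 2 kPa and -0.41 ± 0.08 (adjusted p = 0.00204, edgeR) at 20 kPa. At 2 kPa the call was lost with the length correction (adjusted p = 0.107), with block, length and GC together (0.147), in the fit of only 6 samples (0.0542), with total counts alone (0.0505), and without replicate 1 or 2 of the elastic gels (0.14 and 0.0979) or replicate 2 or 3 of the viscoelastic gels (0.102 and 0.0717). The call at 20 kPa was kept in each of these.

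Lamb1, the β1 chain that pairs with Lamc1 in many laminins, had 365, 388 and 335 CPM on 2-kPa elastic gels and 374, 369.6 and 379 on 2-kPa viscoelastic gels. At 20 kPa it had 373, 349 and 379 CPM on elastic and 344, 375 and 341 on viscoelastic gels. The groups overlapped in each comparison and edgeR called no difference. Its mean log2 fold change over both stiffnesses was 0.00 with a 95% interval of -0.10 to 0.10 (adjusted p = 0.957, edgeR).

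Lama4, the α4 chain found in vessels, fat and muscle, was read at 354, 359 and 341 CPM on 2-kPa elastic gels, 327, 317 and 338.5 on 20-kPa elastic gels, 325, 304 and 328.5 on 2-kPa viscoelastic gels, and 302, 328.5 and 302 on 20-kPa viscoelastic gels. The 2-kPa elastic samples lay above the samples of each other group, and the rest overlapped. It was not called in any comparison, and its mean log2 fold change between gel types was -0.11 (95% interval -0.20 to -0.02; adjusted p = 0.0541, edgeR). That value sat at the threshold: it passed with DESeq2's Wald test (adjusted p = 0.0168), with DESeq2's size factors (0.0495), with the GC correction (0.0254) and without replicate 2 of the 20-kPa viscoelastic gels (0.0317), while the length correction turned it to 0.007 (0.917).

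Within a sample, the counts of Lamb1 relative to Lamc1 ran from 1.46 to 1.62 on 2-kPa elastic gels, 1.33 to 1.57 on 20-kPa elastic gels, 1.79 to 2.08 on 2-kPa viscoelastic gels and 1.76 to 1.98 on 20-kPa viscoelastic gels. All 6 viscoelastic samples thus had a higher ratio than all 6 elastic ones. The log2 ratio was higher by 0.334 on viscoelastic gels (0.32 at 2 kPa and 0.35 at 20 kPa), which is a ratio 1.26-fold as high (exact permutation test within stiffnesses, two-sided, p = 0.005, the smallest that 400 arrangements allow, adjusted p = 0.04). Such a ratio does not depend on how libraries are scaled. With stiffness it differed by -0.072 (exact permutation p = 0.235, adjusted 0.376).

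**Figure D3:**
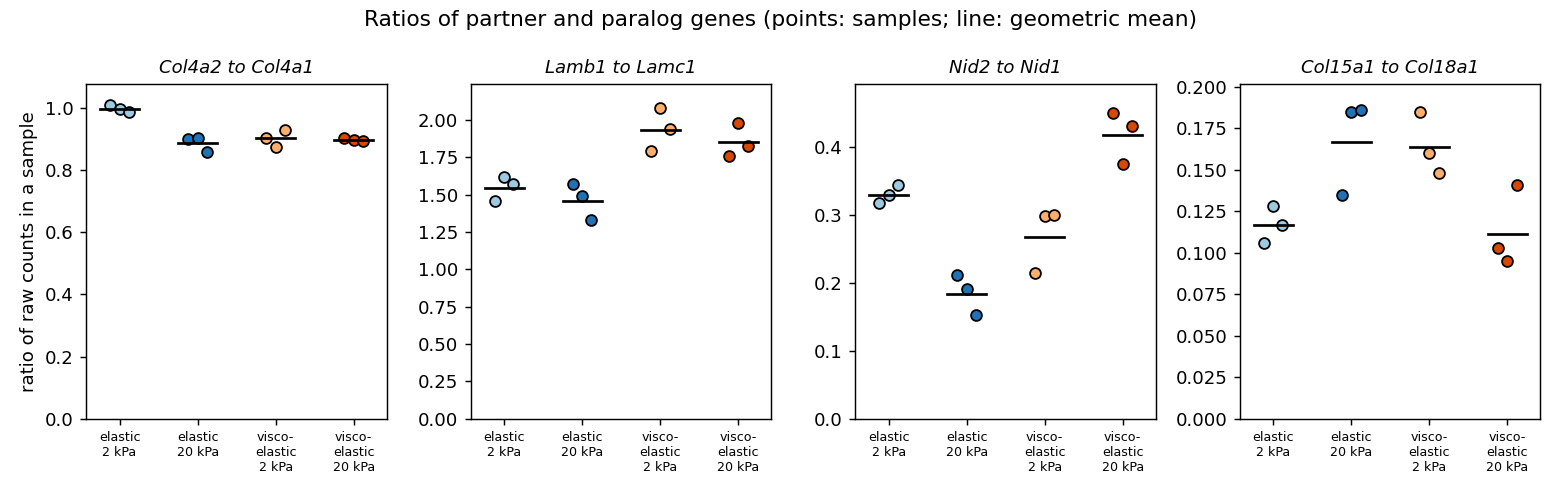
Ratio of raw counts of 4 gene pairs in each of 12 samples (points) by gel group, with the geometric mean as a line and axes from 0. The ratio of Lamb1 to Lamc1 lies at 1.76 or above on viscoelastic gels and at 1.62 or below on elastic gels, and that of Nid2 to Nid1 is lowest on 20-kPa elastic gels (0.152 to 0.211).

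The 2 nidogens, paralogs that link laminin to type IV collagen, went in opposite directions at 20 kPa. Nid1 had 903, 919 and 855 CPM on 2-kPa elastic gels and 889.6, 857 and 808 on 2-kPa viscoelastic gels, which overlapped. At 20 kPa it had 894.5, 943 and 1134 CPM on elastic gels and 687, 701 and 656 on viscoelastic gels, which did not. Its log2 fold change was -0.07 ± 0.08 at 2 kPa (95% interval -0.24 to 0.11; adjusted p = 0.604, edgeR) and -0.54 ± 0.08 at 20 kPa (adjusted p = 0.000324, edgeR).

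Nid2 was read at 286, 302 and 293.5 CPM on 2-kPa elastic gels and at 191, 255 and 242 on 2-kPa viscoelastic gels, all lower. At 20 kPa the order was the other way, with 188, 180.0 and 172 CPM on elastic gels and 309, 263 and 283 on viscoelastic gels, again without overlap. The log2 fold change was -0.36 ± 0.09 (adjusted p = 0.0126, edgeR) at 2 kPa and 0.66 ± 0.09 (adjusted p = 0.000178, edgeR) at 20 kPa, and neither call was lost under any alternative tried. Of its exonic bases 8.45% are shared with Rtraf, an RNA-binding transport factor encoded on the other strand, and whether counting used strand is not given in the sources used here. Rtraf, with a mean of 84.6 CPM, rose on viscoelastic gels by 0.22 at 2 kPa (adjusted p = 0.0337, edgeR) and by 0.35 at 20 kPa (adjusted p = 0.00122, edgeR). Its part in the counts of Nid2 was not tested.

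The effect of the gel type therefore depended on stiffness for both nidogens and for Col18a1. As a difference of log2 fold changes (20 kPa minus 2 kPa), the interaction was 1.02 ± 0.13 for Nid2 (adjusted p = 0.000313, edgeR), -0.47 ± 0.12 for Nid1 (adjusted p = 0.0234, edgeR) and 0.85 ± 0.18 for Col18a1 (adjusted p = 0.0109, edgeR). Of the 10 genes, 2 were thus called higher and 1 lower, where 4.45% and 3.12% of all tested genes were. The interaction of Nid1 was lost without replicate 1 or 3 of the 2-kPa elastic gels (adjusted p = 0.0518 and 0.058), replicate 1 or 3 of the 20-kPa viscoelastic gels (0.0511 and 0.0646) or replicate 1 of the 2-kPa viscoelastic gels (0.0543, all edgeR). The other 2 held under each alternative. Counts of Nid2 relative to Nid1 ran from 0.317 to 0.343 on 2-kPa elastic gels, 0.152 to 0.211 on 20-kPa elastic gels, 0.215 to 0.299 on 2-kPa viscoelastic gels and 0.375 to 0.45 on 20-kPa viscoelastic gels. Over both stiffnesses the log2 ratio differed by 0.446 between gel types (-0.30 at 2 kPa and 1.19 at 20 kPa; exact permutation p = 0.105, adjusted 0.21).

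Markers of fibroblasts and of other cell types were called in the interaction in both directions. Opposite to Nid2 were Thy1 on the fibroblast list (-0.62, adjusted p = 0.0109) and Tek on the endothelial list (-1.65, adjusted p = 0.00925). So was Myh11 on the pericyte and smooth muscle list (-2.06, adjusted p = 0.00077, edgeR). On the adipocyte list, Fabp4 (0.9, adjusted p = 0.0173) and Pparg (0.49, adjusted p = 0.0146, edgeR) had the direction of Nid2, as did Lum, Col9a1 and S100b. Lum, on the fibroblast list and encoding the proteoglycan lumican, had mean CPM of 936 and 594 on 2- and 20-kPa elastic gels and 719 and 968 on 2- and 20-kPa viscoelastic gels, with an interaction of 1.09 ± 0.19 (adjusted p = 0.00297, edgeR). Col9a1, a cartilage collagen and 1 of the 5 chondrocyte markers, had mean CPM of 295 and 183 on 2- and 20-kPa elastic gels and 266 and 333.5 on 2- and 20-kPa viscoelastic gels (SD 3 to 53), with an interaction of 1.01 ± 0.20 (adjusted p = 0.00589, edgeR). It was the only 1 of these 5 markers with a called interaction. The other 4 had 0.47 ± 0.28 (Matn3, adjusted p = 0.343), 0.46 ± 0.16 (Acan, adjusted p = 0.0916), 0.32 ± 0.18 (Col2a1, adjusted p = 0.331) and 0.05 ± 0.13 (Sox9, adjusted p = 0.864, edgeR). S100b, on the list of Schwann cell markers and known in chondrocytes too, had means of 71.9, 42.6, 55.2 and 81.9 CPM in the same order of groups and an interaction of 1.32 ± 0.13 (adjusted p = 5.8e-05, edgeR). Sox10, which defines Schwann cells, had a mean under 1 CPM in each group. The part of chondrocytes in the values of Nid2 and Col18a1 was not tested.

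Hspg2 encodes perlecan, and its exons sum to 14.31 kb, the greatest length of the 10 genes. It was read at 1834, 1887 and 1524.5 CPM on 2-kPa elastic gels and at 1352, 1185 and 1303 on 2-kPa viscoelastic gels. At 20 kPa it had 1417, 1464 and 1775 CPM on elastic and 1224, 1057 and 1093 on viscoelastic gels. No viscoelastic sample reached an elastic one of the same stiffness. On elastic gels replicate 3 stood apart from the others, as the lowest sample at 2 kPa and the highest at 20 kPa. Replicate 3 held these places for Col4a1, Col4a2, Lamc1, Nid1, Col15a1, Col18a1, Lama4 and Lamb1 too, and not for Nid2. For Hspg2 the log2 fold change was -0.45 ± 0.10 at 2 kPa (adjusted p = 0.00732, edgeR) and -0.46 ± 0.10 at 20 kPa (adjusted p = 0.00346, edgeR). At 2 kPa the call was lost with block, length and GC corrected together (-0.23; adjusted p = 0.145, edgeR), and no single sample left out ended it. Of the 6 pericyte and smooth muscle markers, whose sum was 486 to 567.5 CPM on 2-kPa elastic, 391.5 to 528 on 20-kPa elastic, 334 to 348 on 2-kPa viscoelastic and 293 to 349 on 20-kPa viscoelastic gels, 3 were lower and 1 higher on viscoelastic gels at 2 kPa (11.1% and 8.77% of all tested genes) and 3 lower at 20 kPa (16.1%). Cspg4 and Mcam were lower at both stiffnesses, Notch3 was lower at 2 kPa, and Myh11, the myosin of smooth muscle at group means of 1.15 to 3.08 CPM, was higher at 2 kPa (0.86, adjusted p = 0.0127) and lower at 20 kPa (-1.20, adjusted p = 0.000625, edgeR). Most of that sum was Cspg4, itself a proteoglycan gene (mean CPM of 504, 421, 318 and 300.3 in that order of groups), while Rgs5 and Des, which define pericytes and muscle, had means under 1 CPM. The part of such cells in these values was not tested.

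Col18a1 and Col15a1 encode the collagens that are cut to release endostatin and its relative, and they differed in their pattern. Col18a1 had 78.6, 72.4 and 62.9 CPM on 2-kPa elastic gels and 39.3, 48.4 and 44.1 on 2-kPa viscoelastic gels, with no overlap. On 20-kPa elastic gels it had 56, 48.1 and 68.5 CPM and on 20-kPa viscoelastic gels 64.1, 73.8 and 53.9, which overlapped. The log2 fold change was -0.70 ± 0.13 at 2 kPa (adjusted p = 0.00209, edgeR), the lowest of the 10 genes, and 0.15 ± 0.13 at 20 kPa (95% interval -0.12 to 0.43; adjusted p = 0.386, edgeR). The mean over both stiffnesses, -0.27 (adjusted p = 0.0275, edgeR), joins these unlike values, and was lost with the length correction (0.0899), with block, length and GC together (0.21), and without replicate 1 or 2 of the 2-kPa elastic (0.0744 and 0.0536), replicate 3 of the 20-kPa elastic (0.08), replicate 1 or 3 of the 2-kPa viscoelastic (0.0601 and 0.0508) or replicate 3 of the 20-kPa viscoelastic gels (0.0747).

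Col15a1 was low, with 8.33, 9.26 and 7.36 CPM on 2-kPa elastic, 7.54, 8.92 and 12.7 on 20-kPa elastic, 7.27, 7.73 and 6.54 on 2-kPa viscoelastic and 6.6, 7.02 and 7.57 on 20-kPa viscoelastic gels. The groups overlapped at both stiffnesses. It was called lower at 20 kPa (log2 fold change -0.46 ± 0.15, adjusted p = 0.0318, edgeR) and on average (-0.34 ± 0.11, adjusted p = 0.0234), and not at 2 kPa (-0.21 ± 0.16, adjusted p = 0.356, edgeR). The call at 20 kPa rested on replicate 3 of the elastic gels, which had the value of 12.7 CPM: without it the log2 fold change was -0.22 (adjusted p = 0.206, edgeR). It was also lost without replicate 1 or 2 of the 20-kPa viscoelastic gels (0.0966 and 0.0738), with the length correction (0.0542), with block, length and GC together (0.0901) and in the fit of only 6 samples (0.0597). The average was lost with the length correction (0.0528), with block, length and GC together (0.115), and without replicate 2 of the 2-kPa elastic (0.0642), replicate 3 of the 20-kPa elastic (0.0513), replicate 3 of the 2-kPa viscoelastic (0.0592) or replicate 1 of the 20-kPa viscoelastic gels (0.0524). Relative to Col18a1, its counts differed by -0.047 on the log2 scale between gel types (0.49 at 2 kPa and -0.58 at 20 kPa; exact permutation p = 0.845, adjusted 0.91).

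With stiffness, 1 of the 10 genes was called on elastic gels and 1 on viscoelastic gels. On elastic gels 20 kPa against 2 kPa gave 1 gene lower, Nid2 (log2 fold change -0.71 ± 0.09, adjusted p = 0.000229, edgeR), and 0 higher, where 7.14% of all tested genes were lower and 6.81% higher. The count of 0 higher was also 0 at an unadjusted p under 0.05 and with DESeq2. In a list of 10 genes, both counts are near these shares. The samples of Nid2 on 20-kPa elastic gels (172 to 188 CPM) lay far below those on 2-kPa elastic gels (286 to 302 CPM). For the other 9 genes the log2 fold change lay between -0.31 (Col18a1; 95% interval -0.59 to -0.04) and 0.22 (Col15a1; -0.10 to 0.55). Without replicate 3 of the 20-kPa elastic gels Col18a1 was called too (adjusted p = 0.0439, edgeR).

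On viscoelastic gels 20 kPa against 2 kPa gave 1 gene higher, Col18a1 (log2 fold change 0.54 ± 0.13, adjusted p = 0.0425, edgeR), and 0 lower, where 1.58% of all tested genes were higher and 0.695% lower. At an unadjusted p under 0.05, 2 were higher and 3 lower, where 19% of all tested genes passed in either direction, and DESeq2 called 2 higher (Col18a1 and Nid2) and 1 lower (Nid1). The 3 samples of Col18a1 at 20 kPa (53.9 to 73.8 CPM) lay above the 3 at 2 kPa (39.3 to 48.4 CPM). Yet the call was lost in 8 of the 12 fits that left out 1 sample, those without replicate 2 or 3 of the 2-kPa elastic gels, replicate 1 of the 20-kPa elastic gels, replicate 1 or 3 of the 2-kPa viscoelastic gels, or any replicate of the 20-kPa viscoelastic gels (adjusted p = 0.0503 to 0.119, edgeR). It was also lost with the length correction (0.0507), in the fit of only 6 samples (0.0993) and with the replicate block (0.0734, and 0.0684 with length and GC). Nid1 (-0.32 ± 0.08, adjusted p = 0.0547, edgeR) and Nid2 (0.31 ± 0.09, adjusted p = 0.0791, edgeR) did not pass, although neither overlapped between the 2 stiffnesses. Of the 10 genes, 5 did not overlap there, where 22.3% of all tested genes did not, and on elastic gels 2 did not, where 35.6% of all tested genes did not.

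**Figure D4:**
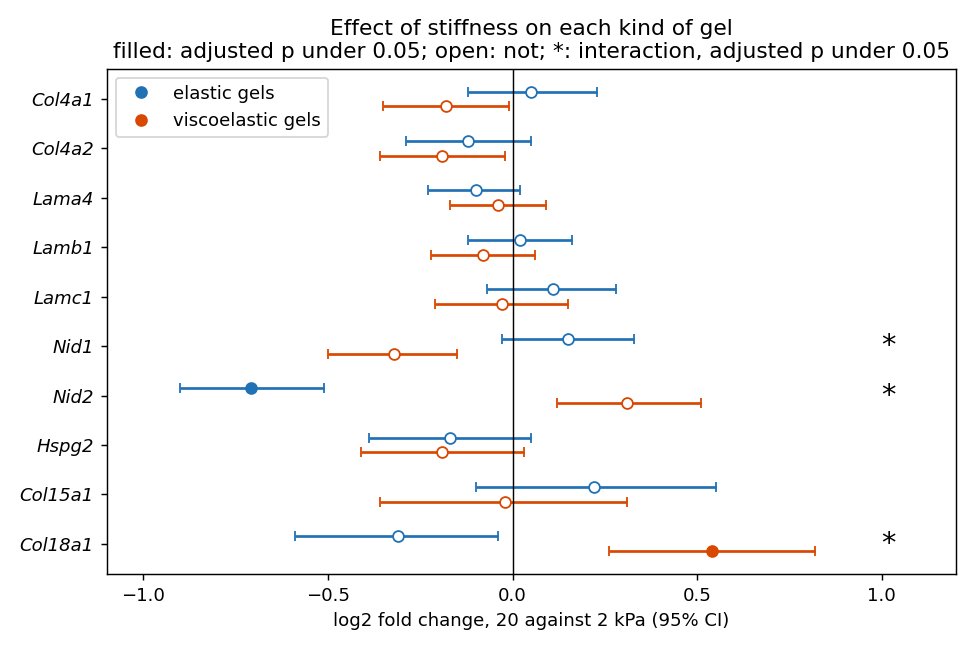
Log2 fold change between 20 and 2 kPa for each gene on elastic (blue) and on viscoelastic gels (orange), with 95% confidence intervals from the edgeR fit. Stars mark the 3 genes with a called interaction, Nid1, Nid2 and Col18a1. Their points lie on opposite sides of 0 on the 2 kinds of gel. So do those of Col4a1, Col15a1, Lamb1 and Lamc1, which have no called interaction.

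Across the 12 samples, Pearson's r of log2 CPM between pairs of the 10 genes ran from -0.624 (Nid1 with Nid2) to 0.971 (Col4a2 with Hspg2). Col4a1, Col4a2, Lamc1, Nid1 and Hspg2 gave all 5 of the 45 pairs with r above 0.9, and the 7 pairs below 0 all held Nid2. The points share the 4 groups and library scaling, so these are descriptions. Of all tested genes the most alike to Col4a1 were Man1b1 (r = 0.988), Nceh1 (0.976), Atp2a2 (0.976), Slc45a4 (0.975) and Asph (0.974). The gene most alike was Slc45a4 for Col4a2 (0.984), Chml for Col15a1 (0.958), Olfm1 for Col18a1 (0.926), Ace for Lama4 (0.951), Dnd1 for Lamb1 (0.828), Plxna1 for Lamc1 (0.982), Tnfrsf26 for Nid1 (0.981), Selenbp1 for Nid2 (0.972) and Notch2 for Hspg2 (0.988).

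The other genes of the pathway were taken from fixed lists. Of the other 4 type IV collagen chains, edgeR called 2 lower and 0 higher on average over both stiffnesses. Of all tested genes 20.4% were lower and 19.6% higher on that average. Col4a5, the α5 chain, went from mean CPM of 223 and 192 on 2- and 20-kPa elastic gels to 201 and 154 on 2- and 20-kPa viscoelastic gels (mean log2 fold change -0.23 ± 0.05, adjusted p = 0.00102, edgeR). Col4a6, the α6 chain encoded head to head with it, had 20.5 CPM on 2-kPa elastic gels and 12.3, 12.2 and 11.1 CPM on 20-kPa elastic, 2-kPa viscoelastic and 20-kPa viscoelastic gels (mean log2 fold change -0.45 ± 0.06, adjusted p = 6.08e-05; interaction 0.59 ± 0.12, adjusted p = 0.0063, edgeR). Col4a4 (0.38 ± 0.16, adjusted p = 0.0752) and Col4a3 (-0.06 ± 0.285, adjusted p = 0.884, edgeR) had group means of 1.32 CPM or less and were not called on average, and Col4a4 was called higher at 2 kPa (0.72, adjusted p = 0.0355, edgeR).

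Of the other 8 laminin chains, 5 were lower and 1 higher on average, where 20.4% of all tested genes were lower and 19.6% higher. The median log2 fold change of these chains was -0.24 where that of all tested genes was 0.01. Lamc3 (γ3; -0.66 ± 0.09, adjusted p = 6.43e-05), Lamb2 (β2; -0.20 ± 0.05, adjusted p = 0.00419) and Lamb3 (β3, of the epithelial laminin 332; -0.44 ± 0.11, adjusted p = 0.00477, edgeR) fell. Lama3, the α3 chain of that epithelial laminin, rose (0.78 ± 0.14, adjusted p = 0.000527, edgeR), with means of 0.612 and 0.614 CPM on 2- and 20-kPa elastic gels and 0.8 and 1.39 CPM on 2- and 20-kPa viscoelastic gels. Lamb2 was the chain with the most counts among these, at 207 to 261 CPM, and Lamc3, Lamb3 and Lama3 were below 10 CPM. Lama5, the α5 chain, had a called interaction (-0.65 ± 0.13, adjusted p = 0.00805, edgeR), with -0.60 at 20 kPa (adjusted p = 0.000386) and 0.06 at 2 kPa (adjusted p = 0.719, edgeR).

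Of 17 other basement membrane components 16 were tested (Frem2 was not). On average 7 were lower and 2 higher, where 20.4% of all tested genes were lower and 19.6% higher. Agrn, the proteoglycan agrin, fell (-0.43 ± 0.05, adjusted p = 3.44e-05) with mean CPM of 283 on 2-kPa elastic gels and 162 to 183 in the other groups, and so did Col7a1, the anchoring fibril collagen (-0.66 ± 0.10, adjusted p = 0.000147), and Tinagl1 (-0.41 ± 0.08, adjusted p = 0.0011, edgeR). Sparc, which binds collagens, rose (0.27 ± 0.07, adjusted p = 0.00708, edgeR) and was the component with the most counts, with group means of 5473 to 6994 CPM. Interactions were called for Ntn4 (0.95 ± 0.12, adjusted p = 0.00031), Smoc1 (0.97 ± 0.205, adjusted p = 0.00981) and Agrn (0.50 ± 0.10, adjusted p = 0.00797) upward, and for Npnt (-0.94 ± 0.14, adjusted p = 0.00108) and Fbln2 (-0.67 ± 0.11, adjusted p = 0.00153, edgeR) downward. Ntn4, a netrin that binds laminin, was lower on viscoelastic gels at 2 kPa (-0.69, adjusted p = 9.74e-05) and higher at 20 kPa (0.26, adjusted p = 0.0292, edgeR).

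Of the 9 genes for type IV collagen folding, export and crosslinking, 6 were lower and 0 higher on average (20.4% and 19.6% of all tested genes). Mia3, which loads collagen into transport carriers (-0.27 ± 0.04, adjusted p = 0.000193), Pxdn, the peroxidasin that crosslinks type IV collagen (-0.22 ± 0.04, adjusted p = 0.00103), Colgalt1, a collagen galactosyltransferase (-0.20 ± 0.04, adjusted p = 0.00109) and P3h2, a prolyl 3-hydroxylase (-0.28 ± 0.06, adjusted p = 0.00167, edgeR) had the lowest p. Interactions were called for Loxl2, a lysyl oxidase (-0.65 ± 0.11, adjusted p = 0.00263), and P3h2 (0.47 ± 0.12, adjusted p = 0.0229, edgeR). Serpinh1, the collagen chaperone with group means of 1354 to 1511 CPM, was not called in any comparison (mean 0.09 ± 0.07, adjusted p = 0.299, edgeR).

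Of 13 basement membrane receptors, 7 were lower and 0 higher on average, where 20.4% of all tested genes were lower and 19.6% higher. The laminin receptor chain Itga6 (-0.60 ± 0.09, adjusted p = 0.000129), the collagen receptor chain Itga2 (-0.95 ± 0.14, adjusted p = 0.000159), the laminin receptor chain Itga3 (-0.53 ± 0.08, adjusted p = 0.000177) and the syndecan Sdc1 (-0.32 ± 0.05, adjusted p = 0.000329, edgeR) had the lowest p. Interactions were called for Itga3 (-0.62 ± 0.16, adjusted p = 0.0298), Sdc2 (0.60 ± 0.17, adjusted p = 0.0408) and Ddr1, a collagen receptor kinase (-0.31 ± 0.09, adjusted p = 0.0408, edgeR). Itga3 had mean CPM of 92.7 and 131 on 2- and 20-kPa elastic gels and 79.6 and 73.1 on 2- and 20-kPa viscoelastic gels. On 20-kPa elastic gels its samples had 112.8, 118.6 and 161.4 CPM, with replicate 3 the highest. Replicate 3 was also the highest there for Itga6 (73.5, 87.7 and 115.2 CPM) and Itga2 (6.21, 7.02 and 11.6 CPM). How far the calls of these genes rest on that sample was not tested.

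Of 7 genes for proteases that cut basement membrane proteins and for the inhibitor Timp3, 3 were lower and 1 higher on average. Among all tested genes these shares were 20.4% and 19.6%. The gelatinase Mmp9 was low in counts and fell most (-1.68 ± 0.28, adjusted p = 0.000319, edgeR), with group means of 4.99 and 2.57 CPM on 2- and 20-kPa elastic gels and 1.12 CPM on viscoelastic gels of each stiffness. On 20-kPa elastic gels its samples had 1.54, 1.57 and 4.61 CPM, and without the last, replicate 3, the call at 20 kPa (-1.19, adjusted p = 0.0331) was lost (-0.48, adjusted p = 0.281), while the average stayed called (-1.32, adjusted p = 0.000267, edgeR, an alternative chosen after seeing the data). Htra1 rose (0.31 ± 0.09, adjusted p = 0.0133), and Ctsb (-0.21 ± 0.07, adjusted p = 0.0278) and Mmp14 (-0.20 ± 0.07, adjusted p = 0.0336, edgeR) fell. Mmp2, another gelatinase, had a called interaction (0.40 ± 0.11, adjusted p = 0.0385, edgeR).

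For these further lists, 0 genes were called higher on average for the other type IV chains, the folding genes and the receptors. The laminin chains had 1 called higher, the other components 2 and the protease list 1, where edgeR called 19.6% of all tested genes higher. In a list of 4 genes, as for the type IV chains, 0 is near that share. At an unadjusted p under 0.05, 1, 0 and 1 genes of the type IV, folding and receptor lists were higher. DESeq2 called 0 higher in each of these. For the laminin, component and protease lists, 2, 3 and 1 were higher unadjusted, and DESeq2 called 1, 2 and 1 higher. The medians over both stiffnesses were -0.15, -0.20 and -0.23 for the type IV, folding and receptor lists. They were -0.24, -0.18 and -0.13 for the laminin, component and protease lists, -0.32 for the 10 basement membrane genes and 0.01 for all tested genes.

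**Figure D5:**
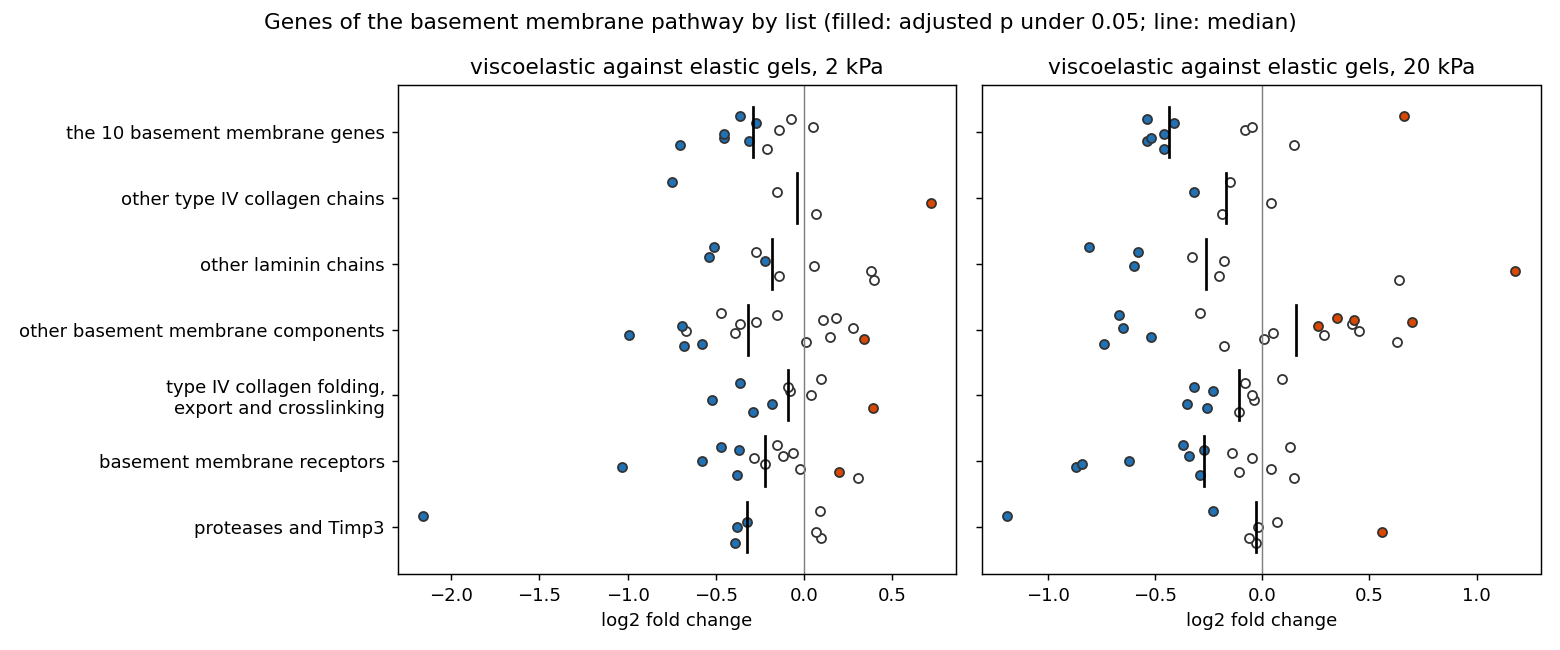
Log2 fold change between viscoelastic and elastic gels at 2 kPa (left) and 20 kPa (right) for the tested genes of each list (points), filled where the adjusted p is under 0.05, with the median of the list as a line. The median of the 10 basement membrane genes is -0.29 at 2 kPa and -0.43 at 20 kPa, and the other basement membrane components have a median of -0.32 at 2 kPa and 0.16 at 20 kPa.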

How the data were processed

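RNA of 12 samples was analysed, 3 in each of 4 groups taken from the sample titles. Per the labels and the study's methods, reads were trimmed (Trimmomatic), mapped to mm10 (STAR) and assigned to genes (featureCounts), and the authors deposited raw counts in one table, with totals of 36626221 to 43612804 per sample. The GENCODE release, strand setting and treatment of multimapping reads are not given in the sources used here.

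Genes that passed filterByExpr (minimum count 10, minimum total 15, large group size 10) entered edgeR 4.0.16 (R 4.3.3) with TMM scaling and a quasi-likelihood fit of 4 group means over all 12 samples, with Benjamini-Hochberg adjustment over the 14542 tested genes and calls at 0.05. Alternatives were DESeq2 1.42.0 (Wald test, or its size factors), total counts, no filter, only the 6 compared samples, a replicate block, trends on exon length or GC content removed (loess span 0.5), block with both trends, and each sample left out. Scripts were tested on simulated data. Within-sample log2 count ratios of 4 gene pairs were compared by exact permutation (8 tests). Correlations used log2 CPM with a prior count of 2. Positions, length and GC came from GENCODE vM21 (GRCm38) by symbol, promoters from RefSeq (GRCm38.p6).

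The 10 genes and the further lists were chosen with earlier results of these data known. From each further list the text names up to 4 genes with the lowest adjusted p for the mean viscoelastic effect, and any called in the interaction. Col4a4 at 2 kPa, Serpinh1, Rtraf, the samples of Mmp9, Itga2, Itga3 and Itga6 and single markers were named after their values were seen. For likeness it names the gene with the highest r for each member and the 5 highest for Col4a1.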

Additional observations from a re-analysis of the deposited data

Results flagged for a closer look

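For 3 genes the effect of the gel type differed between stiffnesses by the test of the difference itself, the interaction of gel type with stiffness in the edgeR fit. It was 1.02 on the log2 scale for Nid2, with viscoelastic against elastic gels at -0.36 at 2 kPa and 0.66 at 20 kPa. For Col18a1 it was 0.85, with -0.70 at 2 kPa and 0.15 at 20 kPa, where the value at 20 kPa was not called. For Nid1 it was -0.47, with -0.07 at 2 kPa, not called, and -0.54 at 20 kPa. Groups of 3 samples are too small for a test of single outlying samples.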

How the results depend on the processing

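Each of 60 log2 fold changes (10 genes in 6 comparisons) was computed again under the alternatives. With DESeq2's size factors 59 kept their direction and their side of the threshold, with DESeq2's Wald test 57, with no filter 56, with total counts alone 56, with the GC correction 55, with the length correction 49, with the replicate block 59, with block, length and GC together 46, and 37 of 40 in fits of only the 6 samples compared. Of 720 fits that left out 1 sample 662 did.

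The counts of called genes moved as follows. For 20 against 2 kPa on viscoelastic gels, 2 genes were higher with DESeq2's Wald test and without the filter, and 0 with the length correction, with only 6 samples, with the replicate block and with block, length and GC together, and leaving out samples gave 0 to 2. For genes lower there, 1 was called with DESeq2's Wald test, the GC correction, no filter or total counts alone, and 0 to 1 with a sample left out. On elastic gels 2 were lower without the filter and 1 to 2 with a sample left out. For the average over both stiffnesses, 1 gene, Nid2, was higher with the GC correction, the length correction, no filter, total counts alone, and block, length and GC together, and 0 to 1 with a sample left out. At 2 kPa, 3 were lower with block, length and GC together. The interaction had 0 to 1 lower with a sample left out.

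Values not called in the report that changed sign were small. With the GC correction Col4a2 on elastic gels with stiffness became 0.007. With the length correction Lama4 became 0.037 at 20 kPa and 0.007 on average, and Lamb1 0.038 and 0.09. With block, length and GC together these were 0.016 for Col15a1 and 0.012 for Lamc1 with stiffness on viscoelastic gels, 0.024 for Col4a2 with stiffness on elastic gels, 0.025 for Lama4 and 0.035 for Lamb1 at 20 kPa, and 0.093 for Lamb1 on average, and total counts alone gave 0.034 for the last. With a sample left out, sign changed within -0.017 to 0.393 (Col15a1), -0.017 to 0.11 (Col4a1) and -0.036 to 0.07 (Lamb1) with stiffness on elastic gels, -0.087 to 0.032 (Col15a1) and -0.087 to 0.028 (Lamc1) on viscoelastic gels, -0.008 to 0.098 (Lamb1 at 2 kPa), -0.031 to 0.022 (Lamb1 on average) and -0.103 to 0.093 (Hspg2, interaction). The log2 ratio of Col15a1 to Col18a1 ranged over -0.132 to 0.009 between gel types and -0.105 to 0.057 between stiffnesses, and that of Col4a2 to Col4a1 between stiffnesses over -0.099 to -0.077. The cause of these changes was not tested.

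Same-numbered samples did not deviate together between gel types or between stiffnesses on elastic gels (r of -0.16 to 0.0505). Between stiffnesses on viscoelastic gels r was 0.184, 0.308 and 0.0483, all positive. The study names no pairing, and the replicate numbers were not taken as pairs. With a replicate block the ratio of Lamb1 to Lamc1 differed by the same 0.334, and sign flips of its 6 differences gave the smallest p that 64 flips allow (exact permutation p = 0.0312, adjusted over 8 tests 0.25), so this test could not pass for a single ratio and says nothing on its stability. The block also ended the call of Col18a1 with stiffness on viscoelastic gels (0.54, adjusted p = 0.0734, edgeR) and no other call of the 10 genes.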
